A study of Mus musculus with 12 samples.

Results

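Expression of 10 heat shock chaperone genes was examined in MIN6 cells given low or high glucose after treatment with trimethylamine N-oxide (TMAO) or vehicle. The genes were chosen by name: Hspa1a, Hspa1b, Hspa8, Hsph1, Dnajb1, Hsp90aa1, Hsp90ab1, Hspd1, Hspe1 and Bag3. They are 10 of the 54022 genes in the count and FPKM tables, and all 10 were counted often enough to be tested. RNA-seq was done on 12 libraries in 4 groups of 3 biological replicates: low glucose with vehicle, low glucose with TMAO, high glucose with vehicle, and high glucose with TMAO. TMAO was given at 100 nM for 18 h, and the labels give the glucose conditions as low and high without a concentration. All groups were wild-type MIN6 cells, a single transformed line grown from an insulinoma of a mouse that carried a viral oncogene, so the values describe a dividing tumour line and not primary islet cells.

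Heat shock proteins bind unfolded proteins and help them to fold, to stay soluble or to be degraded. Hsp70 proteins work in a cycle with J-domain proteins (Hsp40), which deliver clients and start ATP hydrolysis, and with nucleotide exchange factors, which release ADP and the client. Hsp90 receives partly folded clients such as kinases and steroid receptors from Hsp70, and Hsp60 with its lid Hsp10 folds proteins inside mitochondria. Heat and other protein damage activate heat shock factor 1 (Hsf1), which binds repeats of nGAAn, the heat shock element, before its target genes. Hspa1a and Hspa1b are the classical inducible Hsp70 genes, while Hspa8 encodes the constitutive form. Beta cells make very large amounts of a secreted protein, and these chaperones act in the cytosol, nucleus and mitochondria, apart from the chaperones of the endoplasmic reticulum.

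Promoter sequences of 7 of the 10 genes were matched by symbol in RefSeq (GRCm38.p6), from 250 bases before to 50 bases after each start site. No promoter is given here for Hspa8, Hsp90aa1 and Hsp90ab1. The 250 bases before the starts of Hspa1a (chr17:34972157-34972406, minus strand) and Hspa1b (chr17:34959239-34959488, minus strand) are shown because the reads of this gene pair are hard to separate. Capitals mark the 3 bases that differ, at positions -207, -204 and -2 from the start.

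Hspa1a: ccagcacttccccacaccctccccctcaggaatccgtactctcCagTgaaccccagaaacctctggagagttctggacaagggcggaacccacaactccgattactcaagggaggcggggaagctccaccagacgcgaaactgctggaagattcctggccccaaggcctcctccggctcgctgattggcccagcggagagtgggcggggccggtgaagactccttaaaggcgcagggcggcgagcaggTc

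Hspa1b: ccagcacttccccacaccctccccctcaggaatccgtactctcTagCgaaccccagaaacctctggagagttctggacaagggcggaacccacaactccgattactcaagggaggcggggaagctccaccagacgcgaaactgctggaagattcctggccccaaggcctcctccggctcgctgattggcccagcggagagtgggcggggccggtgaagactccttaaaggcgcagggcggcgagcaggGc

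The other 247 bases are identical, and over the whole 300 bases the pair shares 98.7%. A heat shock element of 3 units was searched as GAANNTTC followed directly by NNGAA, on both strands, and 0.603% of 32851 promoters of the same length hold it. It was found for 3 of the 7 genes: Hsph1, Hspe1 and the second annotated start of Hspd1. Here and below a gene counts if any of its annotated starts has a match, while the shares are of single promoters. The 30 bases around each element are shown with the bases of all its matches in capitals. Bag3 is shown beside them, with capitals marking an element of 2 units. The stretches of Bag3 and Hsph1 lie at positions 21 to 50 from the first start, that of Hspe1 at -95 to -66.

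Hspe1 (chr1:55088053-55088082, plus strand): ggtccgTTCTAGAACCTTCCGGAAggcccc

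Hsph1 (chr5:149636287-149636316, minus strand): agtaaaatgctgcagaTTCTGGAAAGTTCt

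Bag3 (chr7:128523603-128523632, plus strand): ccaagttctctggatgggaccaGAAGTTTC

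Hspd1 and Hspe1 are transcribed away from each other. The same 18 bases (chr1:55088059-55088076) hold the element of both genes, as 2 overlapping matches of the 13-letter form on opposite strands. These bases begin 89 bases before the start of Hspe1 and 144 bases before the second start of Hspd1. The element of Hsph1 begins at position 37 from the first and 16 from the second of 2 annotated starts. The match in Bag3 begins at position 43 and ends at the last base of the window. The form with 2 units head to head, GAANNTTC, lies inside the 3-unit form, and 7.86% of promoters hold it. Bag3, Hspa1a and Hspa1b hold only this form, which begins at position -104 of the Hspa1 pair. With the 3 genes above, 6 of the 7 held it. The tail to tail form TTCNNGAA, found in 8.52% of promoters, also lies inside the 3-unit form. It was in 3 of the 7, the same 3 genes that hold the 3-unit form. Dnajb1 held none of these letters. CCAAT was found for 5 of the 7 genes and in 37.4% of all promoters, and the cAMP response element TGACGTCA for 0 of the 7 genes and in 1.79% of all promoters. These matches describe the letters in the window and do not show binding.

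Library totals lay between 16793162 and 22340542 counts on genes, and 16222 genes passed the filter on low counts. The 15 beta-cell markers were all expressed, with a summed level per library, in FPKM (fragments per kilobase of gene length, scaled to the size of the library), of 41285 to 44832 in low and 45049 to 46617 in high glucose with vehicle, without overlap, and of 40239 to 45954 and 44692 to 47792 with TMAO. Of 8 exocrine markers, 6 were at 0 in every library, and the sum was at most 1.49 FPKM, nearly all of it from Cela1 (mean 0.962 FPKM). Of 9 stromal, endothelial and immune markers, 4 (Col3a1, Pdgfrb, Ptprc and Adgre1) were at 0. Most of the sum of the 9 came from Cd68, at a mean of 4.04 FPKM, so the sum mainly follows that gene. This sum was higher in high glucose without overlap, at 3.29 to 4.18 against 4.72 to 5.34 FPKM with vehicle and at 4.40 to 4.60 against 4.62 to 4.67 FPKM with TMAO. In low glucose it was also higher with TMAO than with vehicle. The markers of the other islet cell types, with 1 of 7 at 0, summed to 200.9 to 218.5 FPKM in low glucose and 224.3 to 229.7 FPKM in high glucose. Nearly all of that sum came from Gcg, at a mean of 216.5 FPKM. The part of these markers in the results below was not tested. In bulk RNA, fewer cells of a type and less RNA per cell cannot be told apart.

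The 10 genes covered a wide range of levels. The FPKM scale divides by gene length so that genes can be compared. On it Hsp90ab1 had the highest mean level, 598.9 ± 19.7 FPKM (SD, n = 12 libraries), and ranked 30 of 30981 genes with at least 1 count. It encodes the constitutive cytosolic Hsp90 beta. Hspa8 followed at 288.3 ± 16.2 FPKM (rank 82), and Hsp90aa1, the inducible Hsp90 alpha, at 236.4 ± 8.22 FPKM (rank 106). These are the abundant cytosolic chaperones, and together with the other members they took 0.423% to 0.473% of all counts in a library. The mitochondrial chaperonin Hspd1 (Hsp60) was at 97.5 ± 2.78 FPKM and its cofactor Hspe1 (Hsp10) at 58.0 ± 2.19 FPKM. Among the partners of Hsp70, the J-domain protein Dnajb1 was at 21.9 ± 0.816 FPKM, the co-chaperone Bag3 at 11.7 ± 1.79 FPKM and the Hsp110 nucleotide exchange factor Hsph1 at 6.17 ± 0.441 FPKM. The inducible Hsp70 genes were far lower, Hspa1b at 0.545 ± 0.0967 FPKM (20 to 38 counts per library) and Hspa1a at 0.426 ± 0.0724 FPKM (15 to 30 counts). In this order only the last pair, Hspa1b and Hspa1a, had overlapping library ranges. The order and all ratios between genes depend on the gene length used, for example 7266 bases for Hsph1 and 2562 for Bag3. Before division by length Hsph1 had more fragments than Bag3, at 690 to 971 against 449 to 765 counts per library.

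**Figure D1:**
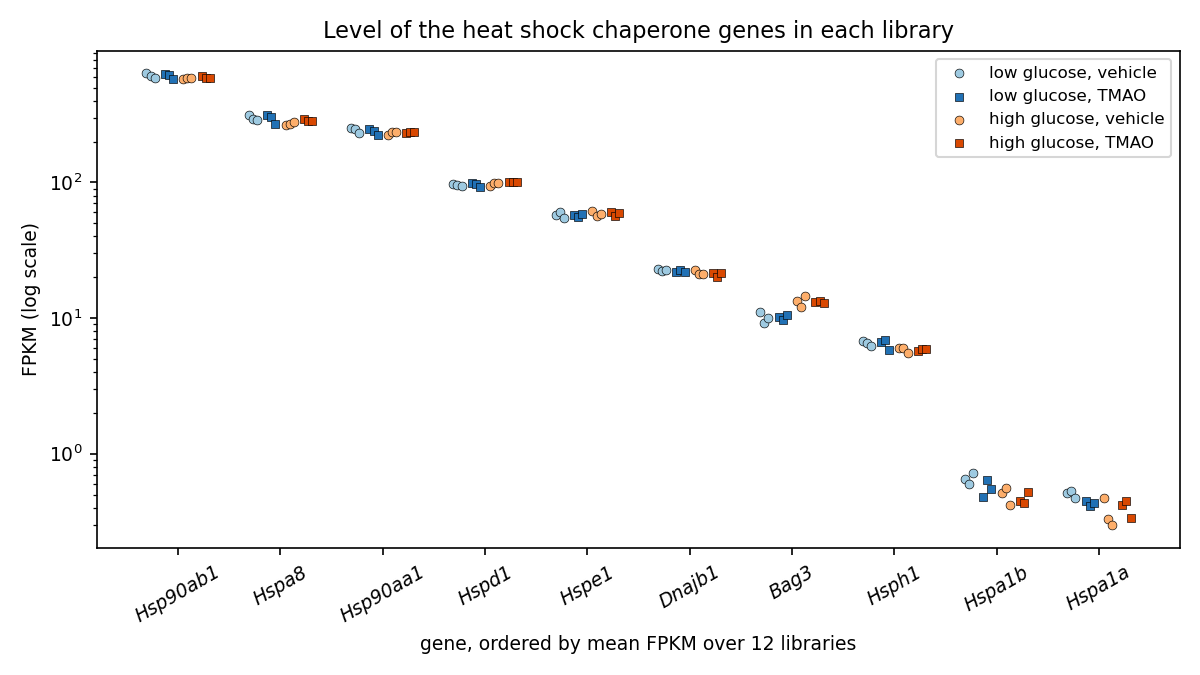
Level of the 10 genes in each of the 12 libraries, in FPKM on a log axis, with genes ordered by mean level and points coloured by group (3 libraries each). The order from Hsp90ab1 at 598.9 FPKM to Hspa1a at 0.426 FPKM was the same for the mean levels of every group; only the neighbours Hspa1b and Hspa1a had libraries that overlap, and Bag3 is the gene whose high glucose points stand above its low glucose points.

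Ratios of levels were also taken within each library. Hsp90ab1 was 2.53 ± 0.044 times Hsp90aa1 in FPKM (n = 12), with a range of 2.46 to 2.61. Hspd1 was 1.68 ± 0.075 times Hspe1, between 1.55 and 1.78. The second ratio overlapped between all 4 groups. The first was 2.46 to 2.54 in low glucose with vehicle and 2.56 to 2.59 in low glucose with TMAO, and all other pairs of groups overlapped. Hspa8 was 302.3 ± 43.0 times the sum of Hspa1a and Hspa1b, so the constitutive gene made up nearly all Hsp70 message of this trio in every library (ratio at least 241.8). The ratio of Hspa8 to Bag3 differed between glucose conditions: it was 29.8 ± 2.14 in low glucose with vehicle and 29.3 ± 3.14 in low glucose with TMAO, and 20.4 ± 1.68 and 21.9 ± 0.451 in high glucose (n = 3 each).

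Shared sequence limits how exactly some of these levels are known. Of the 150-base windows of its transcripts, the length of 1 read, 46% for Hspa1a and 40.5% for Hspa1b were also found in transcripts of another gene, and 1074 windows were common to the pair. Their separate counts are therefore uncertain. For Hspa8 the share was 23%, for Hsp90aa1 28.5%, for Hspd1 16.1% and for Hspe1 6.64%. The other genes were processed pseudogenes, besides the lincRNA Gm26825 (0 counts) for Hspa8 and AC117239.2, which is not among the genes counted here, for Hspe1. Few fragments were counted on these pseudogenes. Gm12346, which resembles Hsp90aa1, had 396 to 590 counts per library against 15413 to 20667 for Hsp90aa1. Hspd1-ps3 had 160 to 304 counts against 4463 to 5932 for Hspd1. Hsph1, Dnajb1, Hsp90ab1 and Bag3 shared 0 windows with another gene. Hspd1 and Hspe1 overlap by 112 bases on opposite strands (chr1:55088132-55088243), and 564 exon bases of Hspa1a (19%) overlap Gm20481, which had 0 counts. The library kit named in the labels does not mark the strand, so reads from such stretches cannot be assigned by strand.

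The first question was which of these genes differed between high and low glucose. In vehicle-treated cells, 1 of the 10 genes passed an adjusted p of 0.05 in edgeR's quasi-likelihood test (3.3% of all tested genes did), and it was Bag3. In TMAO-treated cells Bag3 was again the only one of the 10 (background 3.64%). With the mean of both treatments, 2 of the 10 passed, Bag3 higher and Hsph1 lower (background 8.19%). The median log2 fold change of the 10 genes was -0.068 in vehicle-treated cells, against 0.0021 over all tested genes. In TMAO-treated cells it was -0.036, against 0.0012, and for the mean of both treatments -0.058, against 0.0011.

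Bag3 (ENSMUSG00000030847, chr7:128523616-128546981, plus strand, mm10) encodes a co-chaperone that binds Hsp70, acts as a nucleotide exchange factor and directs clients to selective autophagy. It was the member with the clearest difference. In low glucose with vehicle its levels in the 3 libraries were 28.6, 23.6 and 25.7 CPM (counts scaled to library size, with TMM factors), and in high glucose with vehicle 34.5, 31.2 and 37.6 CPM. All 3 high glucose libraries were above all 3 low glucose libraries. In TMAO-treated cells the levels were 26.3, 24.7 and 27.1 CPM in low glucose and 33.9, 34.3 and 33.1 CPM in high glucose, again without overlap. The log2 fold change was 0.41 (SE 0.076, 95% interval 0.25 to 0.56, adjusted p = 0.000942) with vehicle and 0.38 (SE 0.076, 0.22 to 0.53, adjusted p = 0.00222) with TMAO. These are rises of 32.5% and 29.8%. Averaged over treatments the log2 fold change was 0.39 (SE 0.054, adjusted p = 4.45e-06), and each of the 6 high glucose libraries was above each of the 6 low glucose libraries, which held for 2.62% of all genes. Between 449 and 765 fragments per library lay behind these values.

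**Figure D2:**
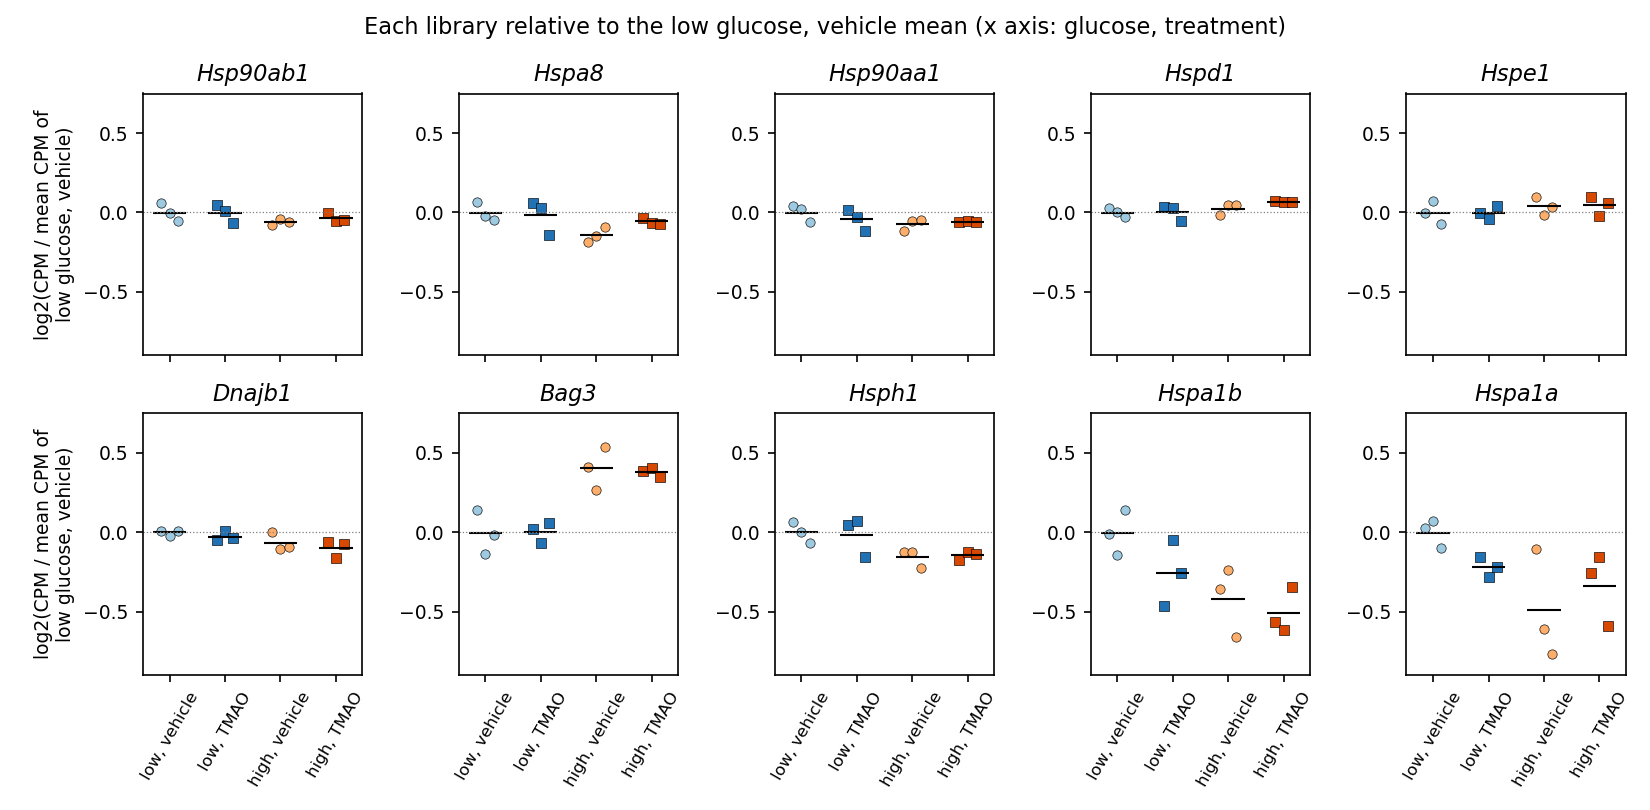
Each library's CPM relative to the mean of low glucose with vehicle, on the log2 scale, in 1 panel per gene; points are libraries, black bars the means of 3 log2 values, and dotted lines mark no difference. Bag3 stands above 0 in all 6 high glucose libraries. Hsph1 lies below 0 in all 6, as do Hspa1a, Hspa1b, Hspa8, Hsp90aa1, Hsp90ab1 and Dnajb1. For Hsp90ab1 and Dnajb1 the highest of these points is just under 0. The points of Hspa1a and Hspa1b, with 15 to 38 counts each, spread most.

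Hsph1 (ENSMUSG00000029657, chr5:149614287-149636376, minus strand) encodes Hsp110, which exchanges the nucleotide of Hsp70 and helps it to dissolve aggregates. Its levels with vehicle were 49.6, 47.5 and 45.3 CPM in low glucose and 43.6, 43.6 and 40.6 CPM in high glucose, without overlap. With TMAO they were 49.0, 49.9 and 42.6 CPM in low glucose and 42.1, 43.5 and 43.2 CPM in high glucose, where the third low glucose library lay among the high glucose ones. The log2 fold change was -0.16 (SE 0.064, adjusted p = 0.249) with vehicle and -0.14 (SE 0.064, adjusted p = 0.316) with TMAO. It passed only in the mean of both treatments, at -0.15 (SE 0.045, adjusted p = 0.0406), which is a change of -9.60%. That call was lost with DESeq2 (adjusted p = 0.0602), with limma on log2(FPKM + 1) (adjusted p = 0.101) and in 9 of 12 fits that each left out 1 library, with adjusted p-values up to 0.124. It held without low glucose, vehicle replicate 3, without low glucose, TMAO replicate 3 and without high glucose, vehicle replicate 1.

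Hspa8 (ENSMUSG00000015656, chr9:40800984-40810087, plus strand), the constitutive Hsp70 that also uncoats clathrin vesicles, lay just outside the threshold. In vehicle-treated cells it ranged from 1251 to 1351 CPM in low glucose and from 1137 to 1210 CPM in high glucose, so the groups did not overlap. The log2 fold change was -0.14 (SE 0.046, 95% interval -0.23 to -0.048, adjusted p = 0.0948). In TMAO-treated cells the ranges 1172 to 1347 CPM and 1231 to 1263 CPM overlapped, and the log2 fold change was -0.042 (SE 0.046, adjusted p = 0.753), or -0.0024, -0.017 and -0.10 without low glucose, TMAO replicates 1, 2 and 3. For the mean of both treatments it was -0.092 (SE 0.032, adjusted p = 0.0796). Without the filter on low counts the vehicle value passed (adjusted p = 0.0253), as it did with only the 6 libraries of the comparison (adjusted p = 0.0480). The mean of both treatments passed without that filter (log2 fold change -0.099, adjusted p = 0.0264), with the replicate number as a block (-0.090, adjusted p = 0.0487) and without low glucose, TMAO replicate 3 (-0.12, adjusted p = 0.00282).

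Hspa1a (ENSMUSG00000091971, chr17:34969190-34972156) and Hspa1b (ENSMUSG00000090877, chr17:34956436-34959238), whose nearly identical promoters are printed above, had the lowest levels and the widest intervals. With vehicle, Hspa1a was at 1.40 to 1.57 CPM in low glucose and 0.883 to 1.40 CPM in high glucose, and Hspa1b at 1.68 to 2.05 CPM and 1.18 to 1.58 CPM. The high glucose libraries were all below the low glucose libraries for both genes, although for Hspa1a by a narrow gap. The log2 fold changes were -0.46 (SE 0.27, 95% interval -1.01 to 0.094, adjusted p = 0.512) for Hspa1a and -0.40 (SE 0.24, -0.90 to 0.10, adjusted p = 0.541) for Hspa1b. In TMAO-treated cells the libraries overlapped, at -0.094 (SE 0.27, adjusted p = 0.924) and -0.26 (SE 0.25, adjusted p = 0.711). With the counts of both genes summed, a choice made after seeing the data, the log2 fold change was -0.43 (SE 0.18, adjusted p = 0.285) with vehicle and -0.18 (SE 0.19, adjusted p = 0.726) with TMAO. None of these differences passed the adjusted threshold at this depth.

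The Hsp90 genes and Dnajb1 had small negative values that did not pass. Hsp90ab1 (chr17:45567775-45573271) ranged from 1767 to 1913 CPM in low glucose and 1735 to 1781 CPM in high glucose with vehicle, at a log2 fold change of -0.062 (SE 0.040, adjusted p = 0.564). Hsp90aa1 (chr12:110690605-110702728) ranged from 921.0 to 988.5 CPM and 888.0 to 929.9 CPM, at -0.072 (SE 0.041, adjusted p = 0.497). Both groups of libraries overlapped. In TMAO-treated cells the values were -0.031 (SE 0.040, adjusted p = 0.798) for Hsp90ab1 and -0.016 (SE 0.041, adjusted p = 0.914) for Hsp90aa1. Dnajb1 (chr8:83608193-83612653), a J-domain partner of Hsp70 and a classical Hsf1 target, was at 71.7 to 73.3 CPM in low glucose and 67.6 to 72.7 CPM in high glucose with vehicle (log2 fold change -0.065, SE 0.052, adjusted p = 0.675). With TMAO it was at 70.2 to 73.1 CPM and 65.0 to 69.7 CPM, which did not overlap, with a log2 fold change of -0.072 (SE 0.052, adjusted p = 0.577).

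The mitochondrial pair had small positive values. Hspd1 (chr1:55077835-55088243) was at 249.4 to 259.4 CPM in low glucose and 251.9 to 262.7 CPM in high glucose with vehicle, at a log2 fold change of 0.025 (SE 0.042, adjusted p = 0.876). With TMAO it was at 244.9 to 260.5 CPM and 266.2 to 268.4 CPM, without overlap, at 0.067 (SE 0.042, adjusted p = 0.500). Hspe1 (chr1:55088132-55091307) ranged from 80.5 to 89.1 CPM and 83.7 to 90.5 CPM with vehicle, at 0.039 (SE 0.052, adjusted p = 0.834), and the value with TMAO was 0.045 (SE 0.052, adjusted p = 0.776). The highest upper limit of the 95% intervals of these genes was 0.152 on the log2 scale, for Hspd1 with TMAO.

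In vehicle-treated cells, 4 of the 10 genes (Hspa1a, Hspa1b, Hspa8 and Hsph1) had high glucose libraries that were all lower than the low glucose ones (9.49% of all tested genes did), and 1, Bag3, had them all higher (9.28%). In TMAO-treated cells the counts were 1 lower, Dnajb1 (9.43%), and 2 higher, Bag3 and Hspd1 (8.98%). At an unadjusted p under 0.05 the counts were 3 of 10 with vehicle (13% of all genes), 2 of 10 with TMAO (14.7%) and 3 of 10 for the mean of both treatments (20.1%). With vehicle the count was 5 with limma and without low glucose, vehicle replicate 3, and 4 without high glucose, vehicle replicate 1. It was 2 without low glucose, vehicle replicate 1 and without high glucose, vehicle replicate 3. With TMAO it was 3 without low glucose, TMAO replicate 3 and 1 without any other of the 6 libraries, with DESeq2, with limma and in a fit of those 6 alone. For the mean it was 5 with limma and without low glucose, TMAO replicate 3. It was 4 without low glucose, vehicle replicate 3, without low glucose, TMAO replicate 1 and without high glucose, vehicle replicate 1. For a single gene, an exact permutation test of 3 against 3 libraries cannot go below p = 0.1, so it decides none of these comparisons.

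**Figure D3:**
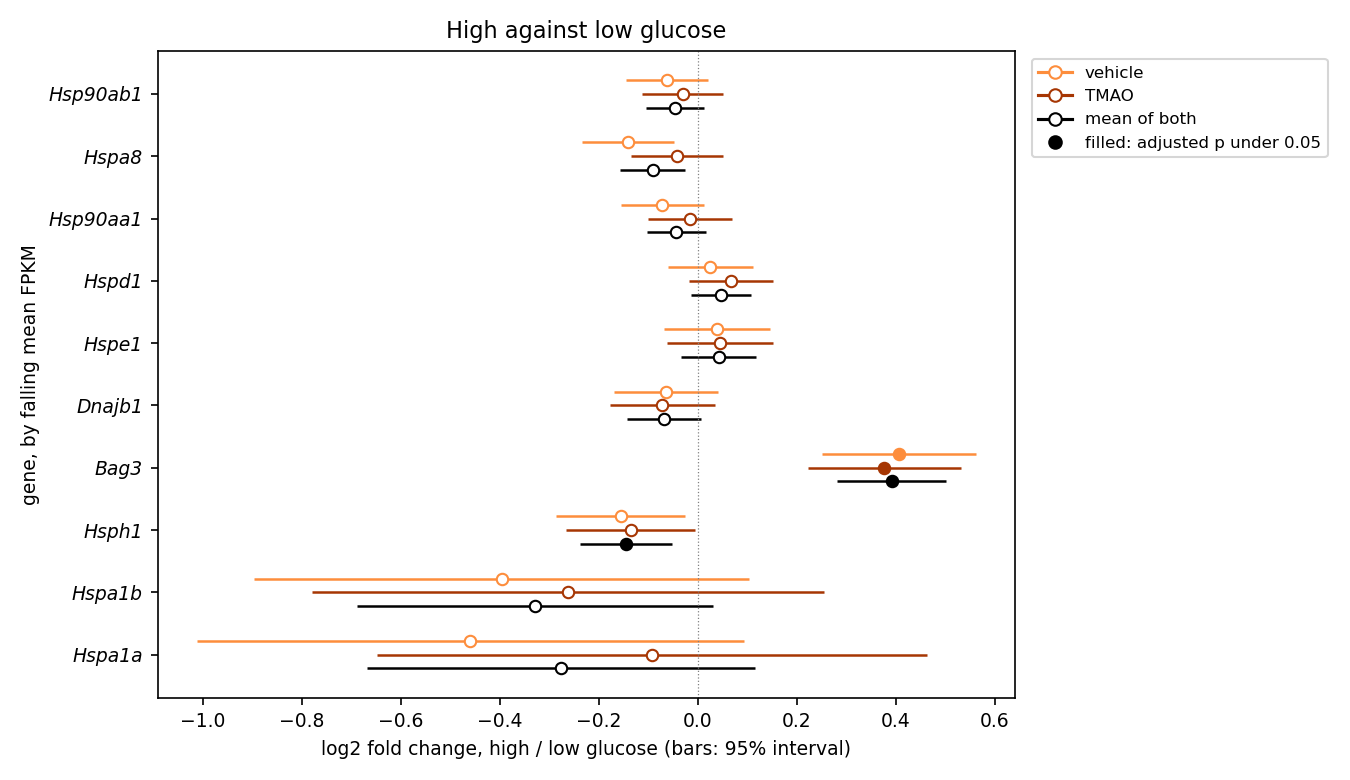
Log2 fold change of high against low glucose for the 10 genes, with vehicle, with TMAO and as the mean of both treatments; points are edgeR estimates, bars 95% intervals, and filled points have an adjusted p under 0.05. Bag3 lies at 0.38 to 0.41 in all 3 estimates, Hsph1 is filled only for the mean, and the intervals of the other 8 genes either cross 0 or, for Hspa8 with vehicle and for the mean, miss the adjusted threshold.

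The wider protein folding network was examined in 9 lists of 111 genes, of which 103 were tested. With the mean of both treatments, 4 were higher and 2 lower in high glucose (8.19% of all tested genes were called in either direction), and the median log2 fold change of the 103 genes was -0.017. Zfand2a, a proteasome-associated zinc finger protein known from arsenite and heat stress, had the largest value. It was at 104.8 to 114.4 CPM in low glucose and 152.7 to 168.3 CPM in high glucose with vehicle, and at 108.5 to 123.1 CPM and 151.2 to 158.1 CPM with TMAO. High glucose was above low glucose in all libraries, at log2 fold changes of 0.53 (SE 0.053, adjusted p = 1.41e-08) with vehicle and 0.44 (SE 0.053, adjusted p = 6.48e-07) with TMAO. Its promoter window held TTCNNGAA and the cAMP response element TGACGTCA but not the 3-unit heat shock element. Ddit3 (CHOP), a transcription factor of the integrated stress response, fell by 0.19 on the log2 scale for the mean of both treatments (SE 0.034, adjusted p = 0.000307). It was at 128.0 to 133.3 CPM in low glucose and 108.9 to 120.2 CPM in high glucose with vehicle. The separate values were -0.18 with vehicle (adjusted p = 0.0297) and -0.19 with TMAO (adjusted p = 0.0178), and these calls were lost in 5 and 4 of 6 fits that left out 1 library. The vehicle call was also lost with limma on log2(FPKM + 1) (adjusted p = 0.0502).

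The J-domain protein list, apart from Dnajb1, had 2 of 18 genes higher and 0 lower for the mean of both treatments (median -0.0041), where 8.19% of all tested genes were called, the background also for the next lists. Dnajb2, which carries ubiquitin-interacting motifs, had a log2 fold change of 0.18 (SE 0.044, adjusted p = 0.00805), and was also called with vehicle alone (0.22, SE 0.063, adjusted p = 0.0407). The vehicle call was lost with limma (adjusted p = 0.123) and in 4 of 6 fits that left out 1 library. Dnajc21, which takes part in ribosome assembly, had 0.16 (SE 0.046, adjusted p = 0.0234). Of the 19 Hsp90 co-chaperones, 1 was higher, Cdc37l1 (0.13, SE 0.041, adjusted p = 0.0378), and 0 were lower (median -0.037). Of 16 mitochondrial folding and import chaperones, 1 was lower, Grpel2, an exchange factor of mitochondrial Hsp70 (-0.13, SE 0.042, adjusted p = 0.0467; median -0.021). The calls of Dnajc21, Cdc37l1 and Grpel2 were lost with limma on log2(FPKM + 1) (adjusted p = 0.0595, 0.143 and 0.0577) and in 4, 7 and 8 of 12 fits that left out 1 library. That of Grpel2 was also lost with DESeq2's Wald test (adjusted p = 0.0681).

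None of the 8 other Hsp70 and Hsp110 genes (median -0.027), the 8 nucleotide exchange and BAG factors (-0.029), the 14 CCT chaperonin and prefoldin genes (-0.0097) or the 3 tested small heat shock proteins (0.025) passed for the mean of both treatments by edgeR. At an unadjusted p under 0.05 the counts were 2 of 8, 1 of 8, 0 of 14 and 0 of 3 (20.1% of all tested genes), and DESeq2 and limma also called 0 in each list. Among the heat shock factors and their regulators 0 of 4 tested genes passed by edgeR, DESeq2 or limma, and 0 at an unadjusted p under 0.05 (median -0.0034). Hsf1, the main activator of the heat shock response, had log2 fold changes of 0.080 with vehicle (SE 0.073, adjusted p = 0.725) and -0.073 with TMAO (SE 0.073, adjusted p = 0.724). Hsf2 had -0.077 (SE 0.070, adjusted p = 0.728) and 0.056 (SE 0.071, adjusted p = 0.793).

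**Figure D4:**
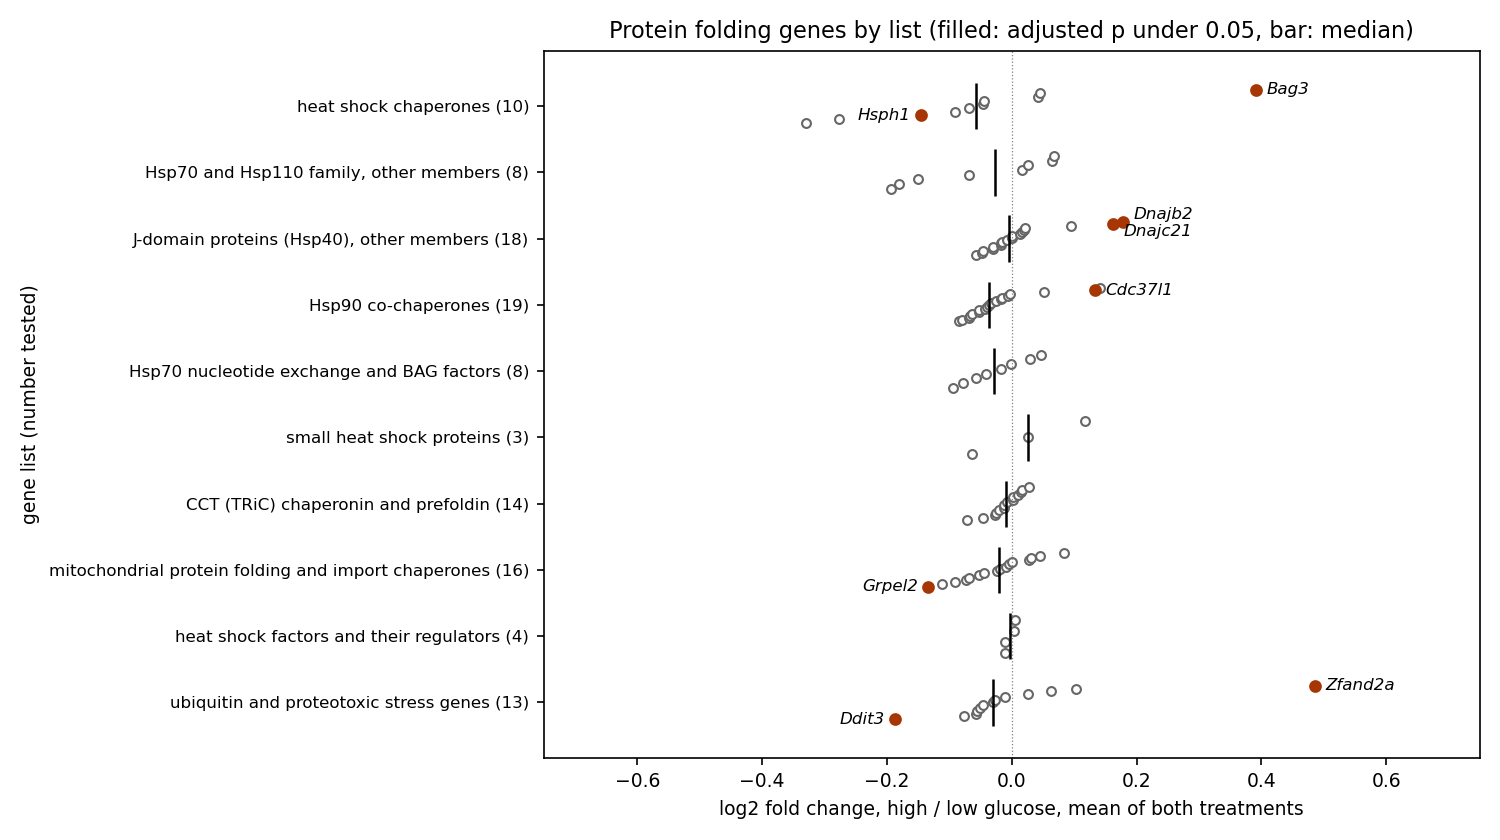
Log2 fold change of high against low glucose, as the mean of both treatments, for the 10 heat shock chaperone genes and the 103 tested genes of 9 related lists; each point is a gene, black bars are list medians, and filled, named points have an adjusted p under 0.05. Zfand2a at 0.49 and Bag3 at 0.39 stand to the right of all other genes, and the list medians lie between -0.058 and 0.025.

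The second question was whether TMAO changed these genes at a given glucose level. In edgeR, 0 of the 10 genes passed in low glucose (0.00616% of all tested genes, which is 1 gene, did) and 0 passed in high glucose (background 0%). At an unadjusted p under 0.05 the counts were also 0 of 10 in low glucose (2.2% of all genes) and 0 of 10 in high glucose (5.35%), where it became 1 without a filter on low counts, in a fit of its 6 libraries alone and without high glucose, vehicle replicate 3. The Wald test of DESeq2 and limma called 0 of the 10 in both. The median log2 fold change of the 10 genes was -0.012 in low glucose and 0.013 in high glucose.

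Bag3, which differed by glucose, had a log2 fold change with TMAO of 0.0042 (SE 0.078, 95% interval -0.15 to 0.16, adjusted p = 1.00) in low glucose and -0.025 (SE 0.074, -0.18 to 0.13, adjusted p = 0.987) in high glucose. Hsph1 had -0.0099 (SE 0.063) and 0.010 (SE 0.064). Hspa8 had -0.015 (SE 0.045, adjusted p = 1.00) in low glucose and 0.085 (SE 0.046, 95% interval -0.0082 to 0.18, adjusted p = 0.910) in high glucose, where the 1231 to 1263 CPM of the TMAO libraries lay above the 1137 to 1210 CPM of the vehicle libraries. Hspd1 was likewise without overlap in high glucose, at 266.2 to 268.4 CPM with TMAO and 251.9 to 262.7 CPM with vehicle (log2 fold change 0.044, SE 0.042, adjusted p = 0.945). Groups did not overlap upward for 5.47% of all genes in that comparison. In low glucose Hspa1a was lower with TMAO in all libraries, at 1.23 to 1.35 CPM against 1.40 to 1.57 CPM (log2 fold change -0.22, SE 0.26, adjusted p = 1.00), which 3.18% of all genes were.

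The remaining values with TMAO did not pass either. In low glucose they were -0.041 (SE 0.041) for Hsp90aa1, -0.0036 (SE 0.040) for Hsp90ab1, -0.027 (SE 0.051) for Dnajb1, 0.0021 (SE 0.042) for Hspd1, -0.0011 (SE 0.052) for Hspe1 and -0.24 (SE 0.24) for Hspa1b. In high glucose they were 0.015 (SE 0.041) for Hsp90aa1, 0.028 (SE 0.040) for Hsp90ab1, -0.034 (SE 0.052) for Dnajb1, 0.0048 (SE 0.052) for Hspe1, 0.15 (SE 0.28) for Hspa1a and -0.11 (SE 0.26) for Hspa1b. For all of these values the library ranges overlapped. Apart from Hspa1a and Hspa1b, the lowest and highest limits of the members' 95% intervals were -0.155 and 0.163 in low glucose and -0.177 and 0.178 in high glucose. For Hspa1a the intervals were -0.76 to 0.32 in low and -0.43 to 0.72 in high glucose. For Hspa1b they were -0.73 to 0.25 in low and -0.64 to 0.42 in high glucose.

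**Figure D5:**
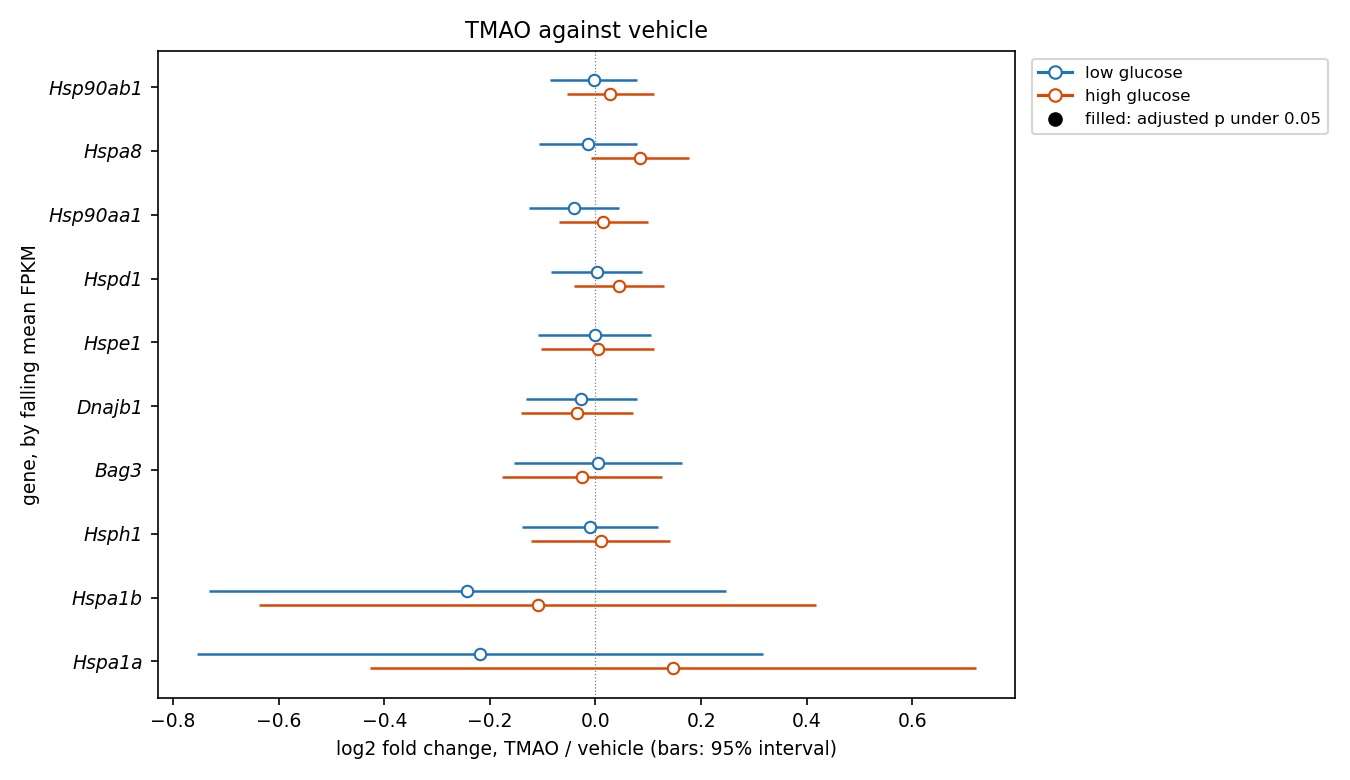
Log2 fold change of TMAO against vehicle for the 10 genes in low and in high glucose; points are edgeR estimates and bars 95% intervals. All points are open, since 0 of 10 genes passed in each comparison, and the bars of Hspa1a and Hspa1b are several times as long as those of the other 8 genes.

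With the mean of both glucose levels, 0 of the 10 genes passed for TMAO (background 0%), and 0 at an unadjusted p under 0.05 (3.62% of all genes), or 1 without low glucose, TMAO replicate 3. The values ranged from -0.18 (SE 0.18) for Hspa1b to 0.035 (SE 0.032) for Hspa8. Among the 103 genes of the 9 lists, 0 were called with TMAO in low glucose, in high glucose and in the mean by edgeR, DESeq2 and limma. At an unadjusted p under 0.05, edgeR gave 3 of the 103 in low glucose (2.2% of all tested genes), 4 in high glucose (5.35%) and 0 in the mean (3.62%).

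The interaction asks whether the glucose difference itself depended on TMAO. By edgeR 0 of the 10 genes passed (background 0%), 0 at an unadjusted p under 0.05 (3.36% of all genes), or 1 without low glucose, TMAO replicate 1, and DESeq2 and limma called 0. Of the 103 genes of the lists, 0 passed by any of these tools, and 6 were under an unadjusted p of 0.05 by edgeR. For Bag3 the difference between the glucose fold changes with TMAO and with vehicle was -0.029 on the log2 scale (SE 0.11, 95% interval -0.25 to 0.19). For Hsph1 it was 0.020 (SE 0.090), and for Hspa8 0.10 (SE 0.064, adjusted p = 1.00), which became 0.041 without low glucose, TMAO replicate 3. Glucose comparisons with vehicle and with TMAO use different libraries, as do TMAO comparisons in low and in high glucose. Each TMAO comparison shares its vehicle libraries with the glucose comparison of vehicle-treated cells. It shares its TMAO libraries with the glucose comparison of TMAO-treated cells.

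Finally, the genes whose levels followed the called members most closely over the 12 libraries were listed as a description. For Bag3 these were Slc3a2, Cebpb and Maff, with Pearson correlations of log2 CPM of 0.97, 0.96 and 0.96 among 16212 other tested genes. Their own log2 fold changes with glucose, as the mean of both treatments, were 0.28, 0.52 and 0.89. For Hsph1 they were Fam118a, Ccny and Xbp1, with 0.96, 0.93 and 0.93, and log2 fold changes of -0.20, -0.076 and -0.12. All of these correlations contain the difference between the low and high glucose libraries.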

How the data were processed

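RNA-seq data from 12 MIN6 libraries were used. The authors deposited raw fragment counts per gene and FPKM values. The submitters' processing notes name HISAT2 2.0.5, featureCounts 1.5.0-p3, DESeq2 1.16.1 and mm10. Groups come from the labels. Poly-T selected, 150-base paired-end libraries of a kit that does not mark strand favour polyadenylated RNA.

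Counts were fitted in R 4.3.3 with edgeR 4.0.16 (filterByExpr with a minimum count of 10, TMM, robust quasi-likelihood F test) in 1 model of all 12 libraries. Adjusted p-values are Benjamini-Hochberg values over all 16222 tested genes, called under 0.05. Levels between genes use FPKM. Steps were tested on simulated counts. Alternatives were DESeq2 size factors, DESeq2 1.42.0, other count filters, only the 6 libraries compared, limma 3.58.1 on log2 FPKM with a pseudocount of 1 or 0.1, the replicate number as a block, leaving out single libraries and, added later, Hspa1a and Hspa1b summed. Figures used Python 3.11.15 and matplotlib 3.10.9.

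The 10 genes and all lists were chosen with earlier results of these data known. All 10 genes are named in each comparison. Genes of the lists are named where called (at most 3 per list and comparison), with Hsf1 and Hsf2, and the 3 closest genes by correlation for each called member.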

Additional observations from a re-analysis of the deposited data

How the results depend on the processing

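Of 1144 member fold changes recomputed, 1127 kept their status, which for most was not called in either fit. A call was lost in 12, gained in 5 and reversed in 0. Among values not called in either fit, 63 changed sign. Bag3 was called for glucose in every alternative, with log2 fold changes of 0.34 to 0.48 with vehicle, 0.34 to 0.40 with TMAO and 0.36 to 0.43 for the mean of both treatments. All 12 losses were of Hsph1 for the mean of both treatments, where it kept its call in 7 of 19 alternatives.

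The number of members called for the mean of both treatments, 2, was 1 with DESeq2's Wald test and with limma on log2(FPKM + 1) and log2(FPKM + 0.1), and 1 to 3 when each library was left out, with 3 only without low glucose, TMAO replicate 3, through Hspa8. It was 3, again with Hspa8, without a filter on low counts. In vehicle-treated cells, 1 called member became 2 without a filter on low counts and with only the 6 libraries of the comparison, through Hspa8. The cause was not tested.

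For all genes, glucose calls in TMAO-treated cells fell from 591 to 347 and 337 with limma and were 365 without low glucose, TMAO replicate 1 and 344 without high glucose, TMAO replicate 3. With vehicle, 536 calls became 341 without low glucose, vehicle replicate 2 and 328 without high glucose, vehicle replicate 3. The 1 gene called for TMAO in low glucose became 7 with no filter, 3 with only 6 libraries and 0 with limma or without low glucose, TMAO replicate 2. In high glucose 0 became 3 with DESeq2, 13 with no filter, 3 with only 6 libraries and 1 without high glucose, vehicle replicate 1. For the mean 0 became 2 with DESeq2, 9 with no filter, 2 without low glucose, TMAO replicate 1 and 1 without low glucose, TMAO replicate 3, and for the interaction 1, 6 and, without high glucose, TMAO replicate 1, 2.

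Deviations of same-numbered libraries from their group means correlated between -0.038 and 0.21. Not every pair was over 0.1, so the numbers were not taken to pair the cultures. For TMAO against vehicle in low glucose the values were 0.21, 0.028 and 0.15 for replicates 1, 2 and 3. There replicate 3 was lowest in its group for 7 members with vehicle and 5 with TMAO. Within groups, Hspa8, Hsp90aa1, Hsp90ab1 and Hspd1 correlated pairwise at 0.85 to 0.95, so counts of members do not count independent genes. With the replicate number as a block, the members called were 1 with vehicle, 1 with TMAO, 3 for the mean of both treatments (Hspa8 added, adjusted p = 0.0487) and 0 for each TMAO comparison and the interaction; all-gene glucose calls rose to 717, 783 and 1678.

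Depth limits Hspa1a and Hspa1b, with 15 to 38 counts per library. Among the related genes, leaving out 1 library ended the call for the mean of both treatments as follows. For Dnajc21 these were low glucose, vehicle replicates 2 and 3, high glucose, vehicle replicate 3 and high glucose, TMAO replicate 3. Cdc37l1 kept its call without low glucose, vehicle replicate 3, low glucose, TMAO replicates 2 and 3, high glucose, vehicle replicate 1 and high glucose, TMAO replicate 1, and Grpel2 without replicate 2 of low glucose with vehicle, low glucose with TMAO and high glucose with vehicle and without high glucose, TMAO replicate 1. With vehicle alone, Dnajb2 kept it without low glucose, vehicle replicate 1 and high glucose, vehicle replicate 2, and Ddit3 without high glucose, vehicle replicate 3. With TMAO alone, Ddit3 kept it without low glucose, TMAO replicate 2 and high glucose, TMAO replicate 1.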
